A study of Drosophila melanogaster with 4 samples.

Results

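The assembled pericentromeric heterochromatin of Drosophila melanogaster held 233 of the 6411 regions that the replicate-set list names as enriched for dimethylated lysine 36 of histone H3 (H3K36me2) in adult heads. The members are the enriched regions on the sequences 2LHet, 2RHet, 3LHet, 3RHet and XHet, which hold scaffolds assigned to the heterochromatin of those chromosome arms but assembled apart from them. They were taken by sequence name and matched to the 2 ChIP replicate lists by an overlap of at least 1 bp. Chromatin came from nuclei of heads of wild-type Oregon-R flies, with the stage labelled as mixed adult. The groups are 2 H3K36me2 ChIP samples and 2 input DNA samples, and the label of each input names the ChIP list for which it was the background. Whether the replicates are separate collections of flies is not stated in the labels, and their spread may be technical. The lists give the position and a score of each region but no read counts, so depth is unknown. Coordinates are those of FlyBase release 5.

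Pericentromeric heterochromatin flanks the centromeres, is rich in satellite repeats and transposon remnants, and carries methylated lysine 9 of histone H3 and the protein HP1. It also holds a small number of genes, among them light and rolled, that are transcribed in this setting. H3K36me2 is laid down in flies by the methyltransferases Ash1 and Mes-4 and is found over transcribed genes. No region is assigned to a gene here, because the gene table at hand is of release 6 and coordinates were not converted.

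The Het sequences together measured 8935 kb and differed in how many regions they carried. The replicate-set list held 113 regions on 2RHet (3289 kb), 82 on 3LHet (2555 kb), 24 on 3RHet (2518 kb), 7 on 2LHet (369 kb) and 7 on XHet (204 kb). Per Mb of sequence this was 34.4 regions on 2RHet, 34.3 on XHet, 32.1 on 3LHet and 19.0 on 2LHet, against 9.53 on 3RHet. In replicates 1 and 2 it was 26.8 and 25.2 on 2RHet, 24.5 and 29.4 on XHet and 25.4 and 27.8 on 3LHet. The order of these sequences thus differed between lists. On 2LHet it was 21.7 and 16.3, and on 3RHet 7.94 and 7.15. The mean covered share of the replicates was 20.6% on 3LHet, 19.0% on 2RHet, 11.9% on 2LHet, 11.4% on XHet and 7.31% on 3RHet. No region was listed on YHet, and none of the few regions named as depleted lay on a Het sequence in any list. The ChIP lists held 186 Het regions in replicate 1 and 184 in replicate 2. Their density was 20.8 and 20.6 per Mb on the Het sequences, against 48.2 and 47.5 per Mb on the large autosomal arms (2L, 2R, 3L and 3R). Repeated or unsequenced bases, where reads cannot be placed, were not separated from the sequence lengths, so a low density of the mark and a low density of placeable reads cannot be told apart.

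**Figure D1:**
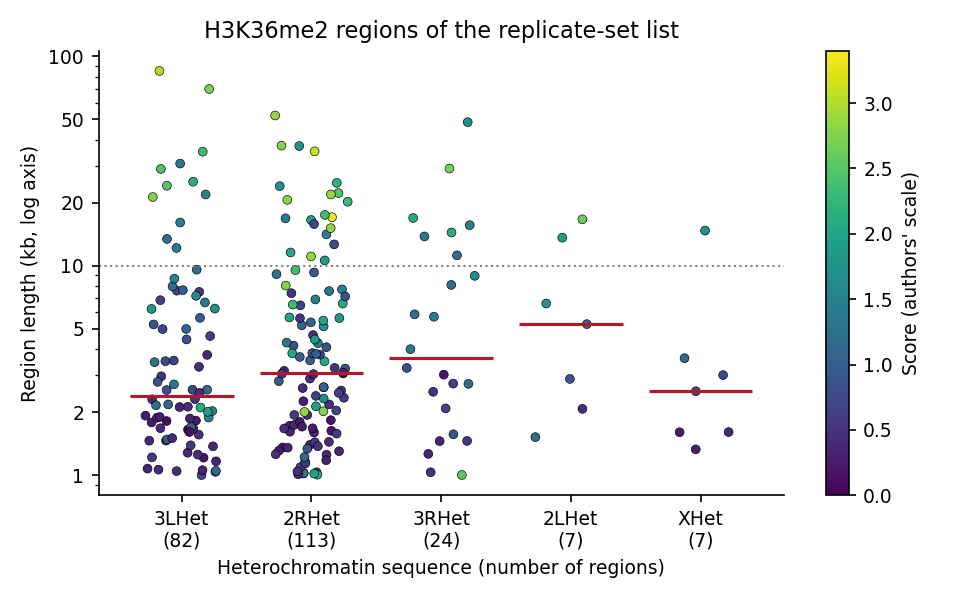
Length of each replicate-set region on the Het sequences (kb, log axis), 1 point per region, coloured by the authors' score, with the median as a red line and 10 kb as a dotted line. Most regions lie between 1 and 10 kb, 43 of the 233 are at least 10 kb long, and the longest, of 85.1 kb, lies on 3LHet.

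Most of the marked length of the heterochromatin lay in a minority of long, high-scoring domains. Of the 233 replicate-set regions 43 were 10 kb or longer, or 18.5%, where 13.1% of all regions in that list were. The share was 40 of 186 in replicate 1 (21.5%, against 10.4% of all replicate 1 regions) and 42 of 184 in replicate 2 (22.8%, against 10.9%). These long regions held 64.0% ± 1.6 (SD, n = 2) of the length covered on the Het sequences, against 32.2% ± 0.37 (SD, n = 2) on the autosomal arms. That made the Het share 1.97 times the arm share in replicate 1 and 2.01 times in replicate 2, and the gap was many times the spread between replicates. With 2 replicates the exact two-sided sign-flip permutation p of any such difference cannot go below 0.5, which was its value here. The members nearest the limit were regions of 9529 and 9575 bp below it and of 10602 and 11075 bp above it. By sequence, long regions held 66.4% and 64.0% of the covered length on 3LHet in replicates 1 and 2. They held 63.9% and 65.0% on 2RHet and 64.5% and 69.9% on 3RHet. On the shorter sequences they held most of it in replicate 2 only, with 31.4% and 66.7% on 2LHet and 0% and 55.4% on XHet.

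On 3LHet the longest domains lay in 2 clusters. A cluster is a run of regions with less than 10 kb between neighbours. The longest member of all, 3LHet 2409788 to 2494855, measured 85.1 kb and scored 3.01 in the replicate-set list. It was 1 region in replicate 1, with a score of 2.99, and 2 regions in replicate 2, the higher of which scored 3.05. With 5 further regions it formed a cluster from 2397443 to 2555470 that spanned 158 kb and was covered over 94.8% of its length. Among them were 2496139 to 2525119 (29.0 kb, score 2.42) and the last region of the sequence, 2531383 to 2555470 (24.1 kb, score 2.50). The second domain, 3LHet 1303846 to 1373612, measured 69.8 kb, scored 2.73 and was 2 regions in each replicate. It lay in the longest cluster of all the Het sequences, 1208689 to 1403797, which held 11 regions over 195 kb with 86.2% covered. These 2 clusters took up 28.1% (the 195 kb one) and 25.1% of the covered length of 3LHet. The replicates marked the same stretches, with 79.8% and 80.9% of the 195 kb cluster and 90.2% and 91.9% of the 158 kb cluster covered in replicates 1 and 2.

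Outside these clusters the third longest region of 3LHet, 2243288 to 2278313, measured 35.0 kb and scored 2.34, with 2.32 in replicate 1 and 2.39 in replicate 2. The next in length, 228637 to 259371, measured 30.7 kb but scored 1.35, with 1.39 and 1.37 in the replicates. It belonged to the cluster 201045 to 259371, which held 6 regions over 58.3 kb. Long members could thus carry scores well under those of the longest domains.

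On 2RHet long domains were spread over more places than on 3LHet. The longest, 3127420 to 3179570, measured 52.2 kb and scored 2.84. It was followed by 1277754 to 1315200 at 37.4 kb (score 2.75), 1543103 to 1580379 at 37.3 kb (1.72), 212798 to 247959 at 35.2 kb (3.11) and 53011 to 77877 at 24.9 kb (2.19). Each of these 5 was covered over at least 98.3% of its length in both replicates. The 37.4 and 37.3 kb domains were each 2 regions in both replicates, and the 52.2 kb domain was 2 regions in replicate 2. The widest cluster, 1826296 to 1938434, held 12 regions over 112 kb, but its regions covered 66.9% of it and had a length-weighted mean score of 1.41. In the replicates 51.8% and 50.6% of it were covered. The next clusters were denser, with 88.6% of 1534172 to 1621814 (87.6 kb, 8 regions) and 89.4% of 1254117 to 1341612 (87.5 kb, 5 regions) covered.

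Of the 5 highest scores in the heterochromatin 4 lay on 2RHet. The top score, 3.32, belonged to 2RHet 2806617 to 2823665, a region of 17.0 kb that scored 3.31 in replicate 1 and 3.34 in replicate 2. The 35.2 kb domain at 212798 came next with 3.11, and scored 3.11 in each replicate. It was followed by the 85.1 kb domain of 3LHet with 3.01. After it came 2RHet 3198882 to 3220775, 21.9 kb long, at 2.86, with 2.88 in replicate 1 and 2.85 in replicate 2. The fifth, 2RHet 1534172 to 1536175, was only 2.00 kb long with a score of 2.85. It overlapped no region in replicate 1 and a region scoring 3.50 in replicate 2.

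On 3RHet the mark was sparse, and the part beyond its midpoint at 1258753 held 97.8% of the covered length in replicate 1 and 96.8% in replicate 2. The longest region, 1934715 to 1983189, measured 48.5 kb with a score of 1.65. It was 3 regions in replicate 1 and 1 region in replicate 2, with top scores of 1.68 and 1.71. The next, 1677354 to 1706459, was shorter at 29.1 kb but scored 2.72, with 2.72 and 2.75 in the replicates. They were followed by 2015322 to 2032225 (16.9 kb, score 2.09), 2434105 to 2449719 (15.6 kb, 1.52) and 1809714 to 1824125 (14.4 kb, 2.12). The cluster from 1934715 to 2032225 spanned 97.5 kb and held 40.2% of the covered length of the sequence. The 29.1 kb region stood alone as the second cluster, and 3 regions at 1800531 to 1827148 formed the next.

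On the shortest Het sequences a single cluster carried most of the mark. On 2LHet 3 regions between 135 and 40983 held 75.9% of the covered length. They measured 16.7 kb (15760 to 32414, score 2.63), 13.6 kb (135 to 13748, 1.92) and 6.60 kb (34381 to 40983, 1.80). The other 4 regions of 2LHet stood alone. They were 247884 to 253145 with a score of 1.04, 164804 to 167685 with 0.913, 190717 to 192790 with 0.429 and 305964 to 307483 with 1.22. On XHet 5 regions between 57175 and 87914 held 84.7%, and in each list all regions lay before the midpoint of the sequence. The longest of them, 60206 to 74917, measured 14.7 kb and scored 1.72, and 80041 to 83660 measured 3.62 kb and scored 1.15. The 3 next XHet regions by length were 3.00, 2.52 and 1.61 kb long with scores of 0.718, 0.720 and 0.392. With 7 regions each, medians for these 2 sequences rest on few values.

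Mean length was greater for Het than for autosomal regions, while median length was close and its order depended on the regions kept. On the Het sequences the medians were 3708 bp (replicate 1) and 3572 bp (replicate 2), against 3740 and 3741 bp on the autosomal arms. The ratio of medians, a mean of 0.973, was 1.14 for the higher-scoring 50% of regions and 1.02 without 3LHet. The mean length was 7468 and 7688 bp on the Het sequences, against 5191 and 5223 bp on the arms, a ratio of 1.46 ± 0.024 (SD, n = 2). In the replicate-set list the Het median was lower, 2893 bp against 3948 bp. Of the covered length 50% lay in regions of at least 14.5 kb in replicate 1 and 15.9 kb in replicate 2 on the Het sequences, against 6.87 and 6.96 kb on the arms. The longest 10% of Het regions, 19 in each replicate, held 42.6% of the covered length in each replicate. On the arms the longest 10% held 30.3% and 30.1%.

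**Figure D2:**
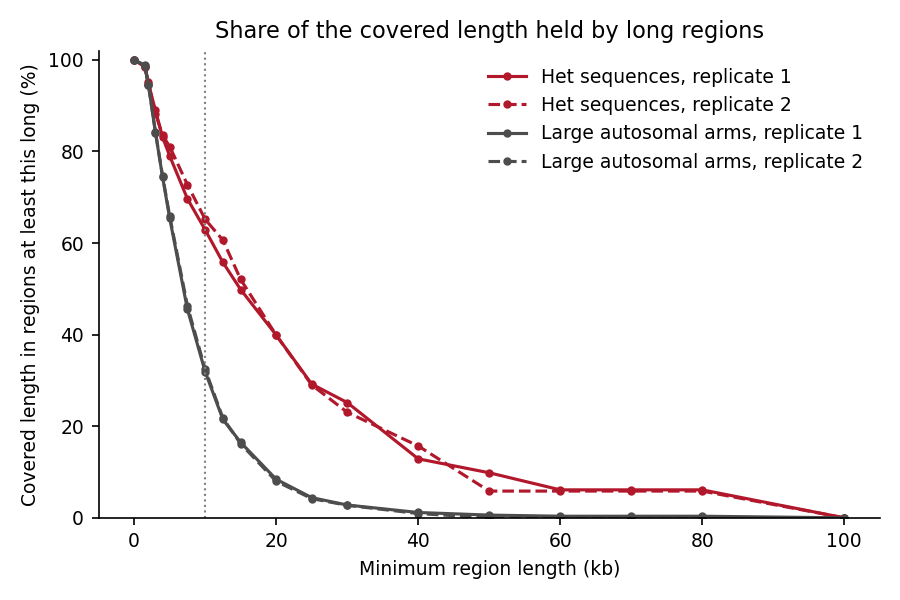
Percent of the covered length that lies in regions of at least a given length (kb), for the Het sequences (red) and the large autosomal arms (grey), with replicate 1 as solid and replicate 2 as dashed lines and 10 kb dotted. At 20 kb the Het lines stand at 39.9% in both replicates and the arm lines at 8.42% in replicate 1, and at 10 kb at 62.9% and 65.2% against 31.9% and 32.4%.

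The Het domains carried higher scores than autosomal regions, with the widest gap among the long ones. Over all regions the median score was 1.17 in replicate 1 and 1.24 in replicate 2 on the Het sequences, 0.231 ± 0.053 (SD, n = 2) above that of the autosomal arms (exact sign-flip permutation p = 0.5, the smallest possible). In the replicate-set list the difference was 0.015. Scores of 2 or more belonged to 39 of 186 Het regions in replicate 1 (21.0%, against 5.89% of all replicate 1 regions) and to 42 of 184 in replicate 2 (22.8%, against 5.18%). Among regions of 10 kb or longer the median was 2.30 and 2.20 in replicates 1 and 2 on the Het sequences, against 1.61 and 1.59 on the autosomal arms. The difference of 0.649 ± 0.058 (SD, n = 2) was 0.629 in the replicate-set list. Below 10 kb the medians were close, 0.928 and 0.926 against 0.895 and 0.886. By length class the Het median was higher by 0.176 ± 0.025 under 2 kb, 0.075 ± 0.016 from 2 to 5 kb and 0.191 ± 0.020 from 5 to 10 kb (SD, n = 2 each). In the replicate-set list these differences were 0.076, 0.027 and 0.140, and over all its regions below 10 kb the Het median was lower, 0.658 against 0.735.

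Long Het regions were longer than long arm regions, with medians of 18.3 and 17.3 kb against 13.0 kb in both replicates, and longer Het regions carried higher scores (Spearman's rho across regions 0.735 and 0.704). The relation of score to length was not particular to the Het sequences, with rho of 0.825 and 0.815 on the autosomal arms. Long regions were also split at 20 kb, a limit chosen after the values were seen. For 10 to 20 kb the Het median score was 1.88 ± 0.033 (SD, n = 2) against 1.57 ± 0.014 on the autosomal arms. For 20 kb or longer it was 2.64 ± 0.15 against 1.93 ± 0.017. The Het sequences had 17 regions of 20 kb or longer in each replicate. The difference between Het and autosomal regions was present within both classes and exceeded the spread between replicates. Het regions were also longer within both classes. From 10 to 20 kb their median length was 13.7 and 13.8 kb in replicates 1 and 2, against 12.3 kb in both on the arms. At 20 kb or longer it was 28.9 and 28.6 kb, against 23.8 and 24.5 kb. The part of length in the score difference was not tested. Among the Het sequences the long regions of 3RHet scored lower than those of 2RHet and 3LHet. Their median was 1.62 and 1.72 in replicates 1 and 2, against 2.34 and 2.25 on 2RHet and 2.32 and 2.46 on 3LHet. There were 6 long regions on 3RHet in each replicate.

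High scores of long regions were not confined to the Het sequences. The centromeric 1 Mb of the 4 autosomal arms, a comparison chosen after the values were seen, held 24 long regions in replicate 1 and 27 in replicate 2. The Het median for long regions was 0.053 ± 0.033 (SD, n = 2) below theirs, which was 2.33 and 2.27. From 10 to 20 kb the Het median was lower, 1.88 ± 0.033 against 2.12 ± 0.036 (SD, n = 2 each). At 20 kb or longer the medians were close, 2.64 ± 0.15 on the Het sequences against 2.67 ± 0.20 in the centromeric 1 Mb (SD, n = 2 each). The value of the centromeric 1 Mb rested on few regions, 8 in replicate 1 (median 2.53) and 9 in replicate 2 (2.81). Long regions held 62.9% and 65.2% of the covered length on the Het sequences, against 47.7% and 50.1% there. The covered share was lower on the Het sequences, 15.5% and 15.8% against 26.2% and 26.5%.

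**Figure D3:**
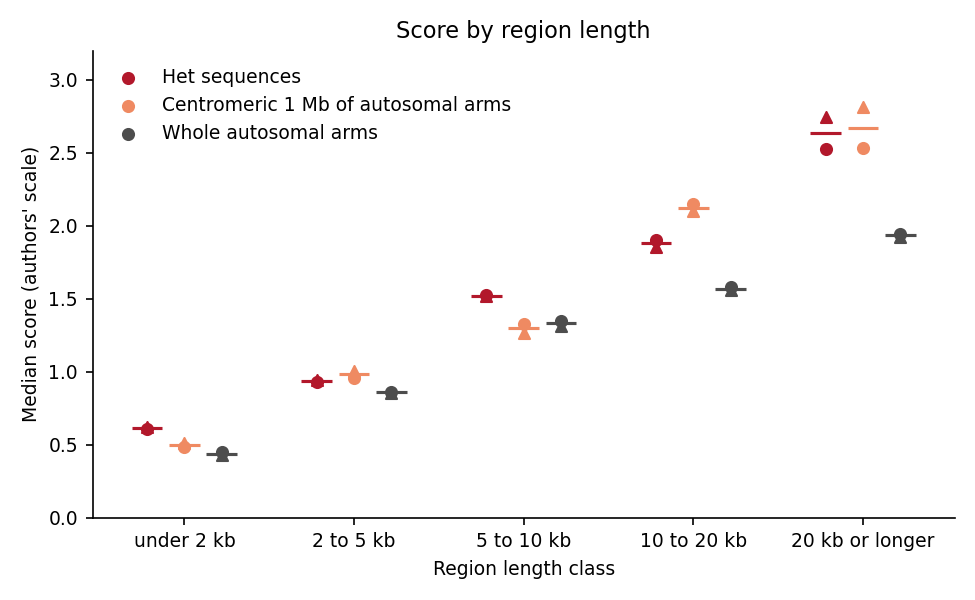
Median score by region length class in replicate 1 (circles) and replicate 2 (triangles), with the mean as a bar, for the Het sequences (red), the centromeric 1 Mb of the autosomal arms (orange) and the whole autosomal arms (grey). At 20 kb or longer the Het mean of 2.64 and the arm-end mean of 2.67 both lie above 1.93 for whole arms. From 10 to 20 kb the Het mean of 1.88 lies below the arm-end mean of 2.12 and above 1.57 for whole arms.

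Along the sequences the Het regions lay in groups and as single regions, with long empty stretches between them. Of neighbouring Het regions 62.4% in replicate 1 and 61.5% in replicate 2 lay less than 10 kb apart, against 71.4% and 70.8% on the autosomal arms. Distances of 100 kb or more made up 11.0% and 10.1% on the Het sequences, against 3.33% and 3.51% on the arms. The replicate-set list formed 85 clusters, 36 of which were single regions. Single regions made up 15.5% of the Het regions of that list, against 9.29% on the autosomal arms. In replicates 1 and 2 they made up 18.3% and 19.0%, against 9.50% and 9.80%. Clusters of 5 regions or more took in 46.4% of the Het regions of the replicate-set list, against 58.1% of arm regions. The 17 clusters with 5 regions or more held 56.4% of the covered length, against 57.9% in such clusters on the autosomal arms. In the replicate lists they held 49.4% and 54.0% on the Het sequences, against 56.4% and 55.5% on the arms, so by number of regions the Het clusters did not hold more. By span the order was the other way. The 11 Het clusters that spanned 50 kb or more in the replicate-set list held 55.2% of the covered length, against 43.8% on the arms. Clusters of 50 kb or more held 53.5% and 53.4% of the Het covered length in the replicate lists, against 40.5% and 38.7% on the autosomal arms.

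Stretches of 100 kb or more without a region in any of the 3 lists took up 53.3% of the Het sequences, 4759 kb in 21 stretches. On the autosomal arms they took up 24.5%. The share was 79.1% on 3RHet, 56.9% on XHet, 44.8% on 3LHet, 42.1% on 2RHet and 33.6% on 2LHet. The longest on 3RHet was its first 788 kb (1 to 787717), followed by 529 kb at 1148120 to 1677353. On 2RHet they were 296 kb (2079422 to 2374962) and 199 kb (2576523 to 2775754), and on 3LHet 266 kb (1741869 to 2007904) and 200 kb (763627 to 963329). On 2LHet they were 124 kb (40984 to 164803) and 61.4 kb up to the end of the sequence (307484 to 368872). On XHet they were 116 kb up to the end (87916 to 204112) and 37.5 kb (19711 to 57174). Whether these stretches lack the mark or lack placeable reads was not tested.

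In windows of 250 kb the covered share varied widely. Of the 39 windows 13 had a mean under 2% and 12 had 25% or more. The last, shorter window of 3LHet, 2500001 to 2555491, had a covered share of 86.0% and 92.6% in replicates 1 and 2. Among full windows the highest was 3LHet 1250001 to 1500000 with 59.0% and 59.3%, followed by 3LHet 2250001 to 2500000 with 49.2% and 49.1% and 2RHet 3000001 to 3250000 with 43.2% and 44.6%. Between these 3LHet windows lay 1750001 to 2000000, with 0% in each list. The replicates differed by at most 6.54 percentage points in any window. These windows were chosen after their values were seen.

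Every Het region of either replicate longer than 2.69 kb had a match in the other replicate, and the unmatched ones were short. Of the Het regions of replicate 1, 170 of 186 overlapped a replicate 2 region (91.4%, Wilson 95% interval 86.5 to 94.6%, against 95.5% of all replicate 1 regions). Of those of replicate 2, 160 of 184 overlapped a replicate 1 region (87.0%, 81.3 to 91.1%, against 95.1%). The Jaccard index, the length covered in both lists divided by the length covered in either, was 0.898 on the Het sequences, against 0.913 on the autosomal arms. On the fourth chromosome it was 0.897 and on the X 0.867, so a lower index than on the arms was not particular to the Het sequences. Among the Het sequences it ranged from 0.855 on XHet and 0.892 on 2RHet to 0.957 on 2LHet. Unmatched regions were short, with medians of 1667 bp for the 16 of replicate 1 and 1531 bp for the 24 of replicate 2. The longest were 3RHet 1824585 to 1827265 (2.68 kb, score 0.763) in replicate 1 and 2RHet 344836 to 347520 (2.69 kb, score 0.788) in replicate 2. Next in replicate 1 were 3LHet 217172 to 219303, 2RHet 797993 to 799923, 2RHet 1835112 to 1836993 and 2RHet 1997282 to 1999159, the last with a score of 2.21. Next in replicate 2 were 2RHet 828354 to 830684, 3LHet 2525245 to 2527234, 3LHet 1301362 to 1303328 and 2RHet 2001702 to 2003602. The last 3 of these scored 2.75, 2.15 and 2.10.

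Fewer Het regions of the replicate-set list were found in both replicates. Both overlapped 137 of 233, or 58.8% (Wilson 95% interval 52.4 to 64.9%), where 81.5% of all regions in that list were overlapped by both. The 137 made up 90.0% of the Het covered length. A further 15 overlapped only replicate 1 and 25 only replicate 2. The remaining 56 of 233, or 24.0% (19.0 to 29.9%), overlapped neither, against 10.5% of all regions. The median of these 56 was 1306 bp in length and 0.419 in score. On 2RHet 34 of 113 overlapped neither, and on 3LHet 15 of 82. On the fourth chromosome 72.1% of regions were overlapped by both replicates and 17.0% by neither, and on the X 78.4% and 10.4%.

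The share of Het regions found in both replicates was also lower than on the autosomal arms within the 2 length classes under 5 kb. Under 2 kb 7 of 79 Het regions were found in both replicates (8.86%, 4.36 to 17.2%), against 28.1% (25.2 to 31.1%) on the autosomal arms. From 2 to 5 kb 49 of 73 were (67.1%, 55.7 to 76.8%), against 94.7% (93.6 to 95.6%). Within these classes the Het regions were shorter, with medians of 1.396 kb against 1.575 kb under 2 kb and 2.882 kb against 3.136 kb from 2 to 5 kb. The shortest region was 1001 bp in the replicate-set list but 1305 and 1301 bp in the replicate lists on the Het sequences, and 1301 and 1304 bp on the arms. The part of these length differences in the lower share was not tested. All 38 Het regions of 5 to 10 kb and all 43 of 10 kb or longer were found in both, as were all such regions of the arms. The intervals cover counting error only, and regions of 1 list are not replicates. Of the regions in neither replicate, 7 were 2 kb or longer. They lay at 616835, 639844, 731505, 781927, 1254117 and 1538845 of 2RHet and at 1706759 of 3LHet. The longest was 3.04 kb with a score of 0.385, and the highest-scoring, 2RHet 1538845 to 1540864, scored 2.75.

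**Figure D4:**
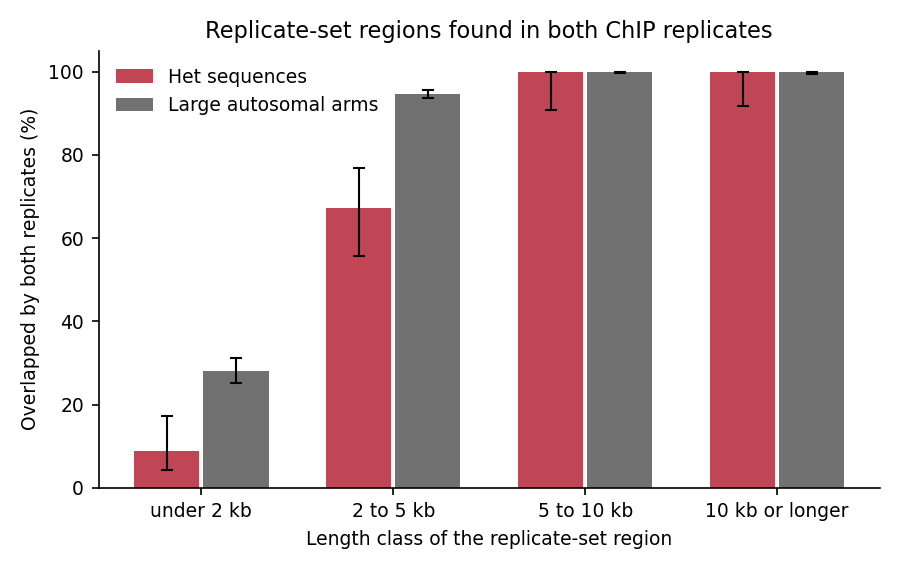
Percent of replicate-set regions overlapped by a region of both ChIP replicates, by region length, on the Het sequences (red) and the large autosomal arms (grey), with Wilson 95% intervals as error bars. The Het bars are lower under 2 kb (8.86% against 28.1%) and from 2 to 5 kb (67.1% against 94.7%), and all bars reach 100% from 5 kb upward.

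Short regions with high scores were listed on the Het sequences, a pattern chosen after its values were seen. Of Het regions under 3 kb, 3 of 78 in replicate 1 and 7 of 83 in replicate 2 scored 2 or more, where 0.24% and 0.541% of all regions of that length did. In the centromeric 1 Mb of the autosomal arms 1 of 77 and 1 of 72 did (1.30% and 1.39%), and on the whole autosomal arms 1 of 1823 and 1 of 1783. The Wilson 95% intervals of the Het shares, 1.32 to 10.7% and 4.15 to 16.4%, overlapped those of the centromeric 1 Mb, 0.230 to 7.00% and 0.246 to 7.46%. Of the 7 in replicate 2, 3 overlapped a replicate 1 region, among them 2RHet 1312788 to 1315178 with 2.48 in replicate 2 and 2.15 in replicate 1. The highest in replicate 1 was 3LHet 1375158 to 1376557, 1.40 kb long with a score of 3.24, and the overlapping region of replicate 2 scored 2.78. Both named regions lay within long replicate-set domains, 2RHet 1277754 to 1315200 (37.4 kb) and 3LHet 1374424 to 1395703 (21.3 kb). Each of these domains was 2 pieces in replicate 1, so the short length was that of a piece. The replicate-set list held 5 such regions among 118 Het regions under 3 kb (4.24%, against 0.634% of all its regions of that length), and 3 of the 5 overlapped no region in either replicate. It held 2 of 77 in the centromeric 1 Mb (2.60%) and 5 of 1772 on the whole arms. The 3 Het regions without an overlap were 2RHet 1538845 to 1540864, 2RHet 1002695 to 1003700 with a score of 2.09 and 3RHet 1751850 to 1752852 with 2.54.

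Many of the long Het domains were cut into pieces in a replicate list. Of the 43 replicate-set regions of 10 kb or longer, 19 were a single region in both replicates (44.2%), 21 were split in replicate 1 and 16 in replicate 2. On the autosomal arms 59.9% of such regions were single in both. The pieces nevertheless covered a median of 96.6% of the Het domain in replicate 1 and 97.3% in replicate 2, and never less than 75.9% in either.

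Scores of matched Het regions were close in the replicates. Across the 128 Het regions that overlapped one-to-one, the median absolute score difference was 0.098, against 0.071 across 3772 pairs on the autosomal arms. Pearson's r was 0.973 and Spearman's rho 0.961, given as a description across regions, which share the same libraries. The score was higher in replicate 2 for 75 of the 128 Het pairs, by a median of 0.032, against 1586 of the 3772 arm pairs, with a median difference of -0.019. It was also higher in replicate 2 for 22 of the 28 Het pairs that were 10 kb or longer in replicate 1, by a median of 0.043. Long arm pairs were not counted in this way. The 28 were part of the 40 long Het regions of replicate 1. Over all long Het regions the median score was lower in replicate 2, 2.20 against 2.30 in replicate 1. Across the 128 pairs starts differed by a median of 101.5 bp and ends by 69 bp.

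**Figure D5:**
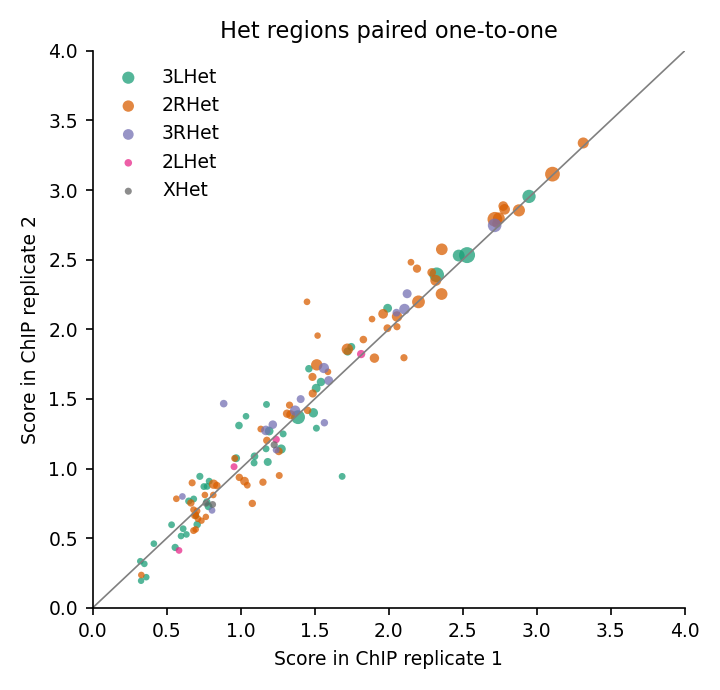
Score in ChIP replicate 1 (x axis) and in replicate 2 (y axis) of the 128 Het regions paired one-to-one, coloured by sequence, with point area growing with region length and the line of equal scores in grey. The large points of long domains lie close to the line, with a median absolute difference of 0.062 for the 28 pairs of 10 kb or longer.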

How the data were processed

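The authors deposited 3 lists of regions with a score per region, covering ChIP replicate 1, ChIP replicate 2 and the replicate set. The score has no stated scale and is the authors' own value. Bowtie 0.12.7 was the aligner, per the submitters' processing notes, and coordinates are FlyBase release 5, per the file headers. Not given in the sources used here are the region caller, its threshold and how replicates were combined. Input values were not analysed here.

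Regions named as enriched on the 5 Het sequences were kept. The autosomal arms are 2L, 2R, 3L and 3R whole. Covered shares were divided by the sequence lengths in the headers. Each mean ± SD is over the 2 replicate lists, and differences were tested by an exact sign-flip permutation over the replicates. Overlap, Jaccard index and clusters were tested on simulated lists with known answers, and the index against bedtools 2.31.1. The software was SciPy 1.17.1, pandas 2.3.3 and NumPy 2.4.6 under Python 3.11.15.

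The members and measures were chosen with earlier results of these data known. The text names the 5 longest regions and 3 widest clusters of each Het sequence, the 5 highest scores, the longest unmatched regions, replicate-set regions of 2 kb or longer found in neither replicate, and the 2 longest stretches without a region on each sequence. Alternatives were joining regions closer than 1 kb, the higher-scoring 50%, an overlap of 50% of the length, other minimum lengths and distances, and the replicate-set list, as well as omission of single replicates or Het sequences.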

Additional observations from a re-analysis of the deposited data

How the results depend on the processing

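Of 73 alternatives over 7 results, 53 were counted as the same, 18 as moved and 2 as reversed in direction. For the ratios and the score difference, the same means only the same side of no difference, whatever the size. For the other results it means within 1 SD of the replicates, and moved means further away. The tests over 2 replicates could not pass, so they say nothing about stability. The covered share of the Het sequences (15.7%) was 15.9% with regions closer than 1 kb joined, 13.4% for the higher-scoring 50%, 18.2% in the replicate-set list and 18.2% from the first to the last region. It was 13.8% without 2RHet, 13.7% without 3LHet and 19.0% without 3RHet. The ratio of median lengths (0.973) reversed to 1.14 for the higher-scoring 50% and to 1.02 without 3LHet, so no direction holds for it. The share of covered length in regions of 10 kb or longer (64.0%) was 75.2% with regions joined, 74.3% for the higher-scoring 50% and 50.9% with a minimum of 15 kb. The share of neighbours closer than 10 kb (61.9%) was 48.3% with regions joined, 55.4% for the higher-scoring 50%, 64.9% in the replicate-set list, 64.9% without 2RHet, 57.9% without 3LHet and 63.0% without 3RHet. It was 52.2% within 5 kb and 70.6% within 20 kb. The median score difference stayed above 0 in each of its alternatives but was 0.015 in the replicate-set list, against 0.231. Apart from what an alternative's own construction fixes, the cause was not tested. Het and arm values were compared within each replicate list. No paired analysis was possible because no values of the inputs were analysed, so ChIP and input samples that share a replicate number could not be compared. Since depth is unknown, absence of a short region from a list does not show absence of the mark.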

Other observations

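In the replicate-set list marked domains lay close to the ends of assembled sequences in 2 places. On 3LHet the last region ended 21 bp before the end of the sequence, and on 2LHet the first began 134 bp after its start. Both were overlapped by regions of each replicate. Replicates 1 and 2 covered 84.8% and 92.3% of the 3LHet region and 94.3% and 99.0% of the 2LHet region. Whether the domains extend beyond the assembled sequences is not shown by these lists.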
